A study of Mus musculus with 9 samples.

Results

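The interferon-stimulated genes described here were 51 genes chosen by name, and all 51 were found among the 28379 genes of the deposited table. All 51 also passed the filter on low counts that left 17002 genes for testing. They were chosen with earlier results of these data known, including their differences between the groups, so their levels and differences are given as descriptions. No p-value of a single gene of the 51 is printed. Counts of calls among them rest on p-values, describe the genes and are no test of the set. The cells were primary bone marrow-derived macrophages (BMDMs) of 10-week-old C57BL/6J mice, precursors that RANKL turns into osteoclasts. All cells received M-CSF (20 ng/ml), a growth factor that keeps macrophages alive, and were collected after 48 h. RANKL was left out in the PBS group, was given at 100 ng/ml in the RANKL group, and was combined at that dose in the RANKL + Vit D + K group with vitamin D as calcitriol (1000 nM) and vitamin K as MK4 (20 μM in the sample labels, whereas the study's methods give a higher dose for these cells). Each group had 3 libraries. The methods of the study speak of pooled RNA without the number of mice or cultures in a library, so the spread between libraries may be technical, and p-values measure only that spread. Cells given 1 vitamin alone, or vitamins without RANKL, were not analysed here.

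Interferons are secreted proteins that cells release when they sense viral or other foreign nucleic acid. Type I interferon binds the IFNAR receptor, the kinases JAK1 and TYK2 pass the signal on, and a complex that includes STAT2 and IRF9 binds the interferon-stimulated response element (ISRE) in promoters, whereas interferon gamma acts mainly through the GAS element. Macrophages keep many of these genes on at a low level without infection, and interferon beta is known as a brake that RANKL itself induces on osteoclast formation.

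The promoters were searched for the ISRE because it is the element through which type I interferon is known to act. RefSeq promoters of GRCm38.p6 (250 bases before to 50 bases after each annotated start) were found for 40 of the 51 genes. The other 11 were Dhx58, Zbp1, Ifi204, Oas2, Usp18, Mx1, Mx2, Iigp1, Ifi27l2a, Rtp4 and Parp14. The ISRE core, searched on both strands as the letters GAAA, any 2 bases and GAAA again, with overlapping matches allowed, was present in 24 of the 40 genes (60.0%), against 3.99% of the 27025 genes of the promoter table. The GAS letters TTCNNNGAA were present in 11 of 40 (27.5%), against 9.55% of all genes. Windows of 30 bases around the core are printed 5′ to 3′ along the gene for the 5 genes with the highest levels among those that hold one, at most 1 per functional group, with every base of a core in capitals.
Ifitm3: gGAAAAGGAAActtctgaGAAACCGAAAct
Slfn5: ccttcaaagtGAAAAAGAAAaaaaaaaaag
Oas1a: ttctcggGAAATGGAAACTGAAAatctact
Stat2: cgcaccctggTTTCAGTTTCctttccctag
Isg15: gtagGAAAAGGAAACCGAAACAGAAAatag
The Ifitm3 window lies at chr7:141010714-141010743 on the minus strand and holds 2 cores, the first of which begins 2 bases after the start. The Slfn5 window lies at chr11:82951937-82951966 on the plus strand, with its core at position -155 from the start. The Oas1a window lies at chr5:120907523-120907552 on the minus strand, with 2 overlapping cores from 20 bases before the start. The Stat2 window lies at chr10:128270266-128270295 on the plus strand, with its core on the opposite strand, 222 bases before the start. The Isg15 window lies at chr4:156200871-156200900 on the minus strand and holds 3 overlapping cores from 78 bases before the start. A match of these letters is a description and not a binding site.

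Neighbouring genes are shown as well, chosen after the sequences were seen, because their windows are the same letter for letter while their reads were counted as separate genes.
Ifit3: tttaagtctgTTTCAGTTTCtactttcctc
Ifit3b: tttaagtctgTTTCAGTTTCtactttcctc
Oas1a: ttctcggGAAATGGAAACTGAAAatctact
Oas1g: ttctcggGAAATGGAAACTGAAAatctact
The Ifit3 window lies at chr19:34583397-34583426 and the Ifit3b window at chr19:34607793-34607822, both on the plus strand, and the Oas1g window lies at chr5:120887609-120887638 on the minus strand. How reads that map to several genes were counted is not given in the sources used here, so the split of reads within Ifit3 and Ifit3b, Oas1a and Oas1g, Mx1 and Mx2, the Ifi203 to Ifi205 genes and the Gbp genes is uncertain.

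Total counts per library lay between 65915112 and 68229647, so depth was nearly equal. CPM are counts scaled to a common library total. Levels are given as FPKM, for which the authors divided fragment counts by transcript length and library size, and differences as log2 fold changes of the counts with their standard errors (SE) from edgeR's quasi-likelihood model of all 9 libraries. A gene was called at a Benjamini-Hochberg adjusted p under 0.05 over all 17002 genes. The treatments left their known marks, since Acp5, the gene of the osteoclast enzyme TRAP, had counts of 608, 755 and 546 in the PBS libraries, 33892, 41013 and 25440 under RANKL and 156, 1230 and 239 with the vitamins. Ctsk, the gene of cathepsin K, was called higher with RANKL than with PBS. With the vitamins it was called lower than with RANKL but still higher than with PBS. Cyp24a1, the vitamin D target that encodes 24-hydroxylase, had no count in the RANKL libraries and 39, 113 and 64 counts with the vitamins, at least 24.1-fold higher against a floor of 3 counts per library. The macrophage markers Csf1r, Adgre1, Cd68, Itgam, Lyz2, Mertk and Fcgr1 were above 0 in every library.

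With the vitamins, 50 of the 51 interferon-stimulated genes were called lower than with RANKL alone, against 17.2% of all genes tested, and the exception was Ifitm3. The median log2 fold change of the 51 genes was -2.69, which is 6.45-fold lower, against -0.04 over all genes tested. Against the PBS group, 47 genes were called lower with the vitamins, against 21.0% of all genes, with a median of -2.38. Between the RANKL and PBS groups no gene of the 51 was called by edgeR, against 3.61% of all genes, and the median was 0.20. The low level with the vitamins was therefore below that of macrophages that had received no RANKL.

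**Figure D1:**
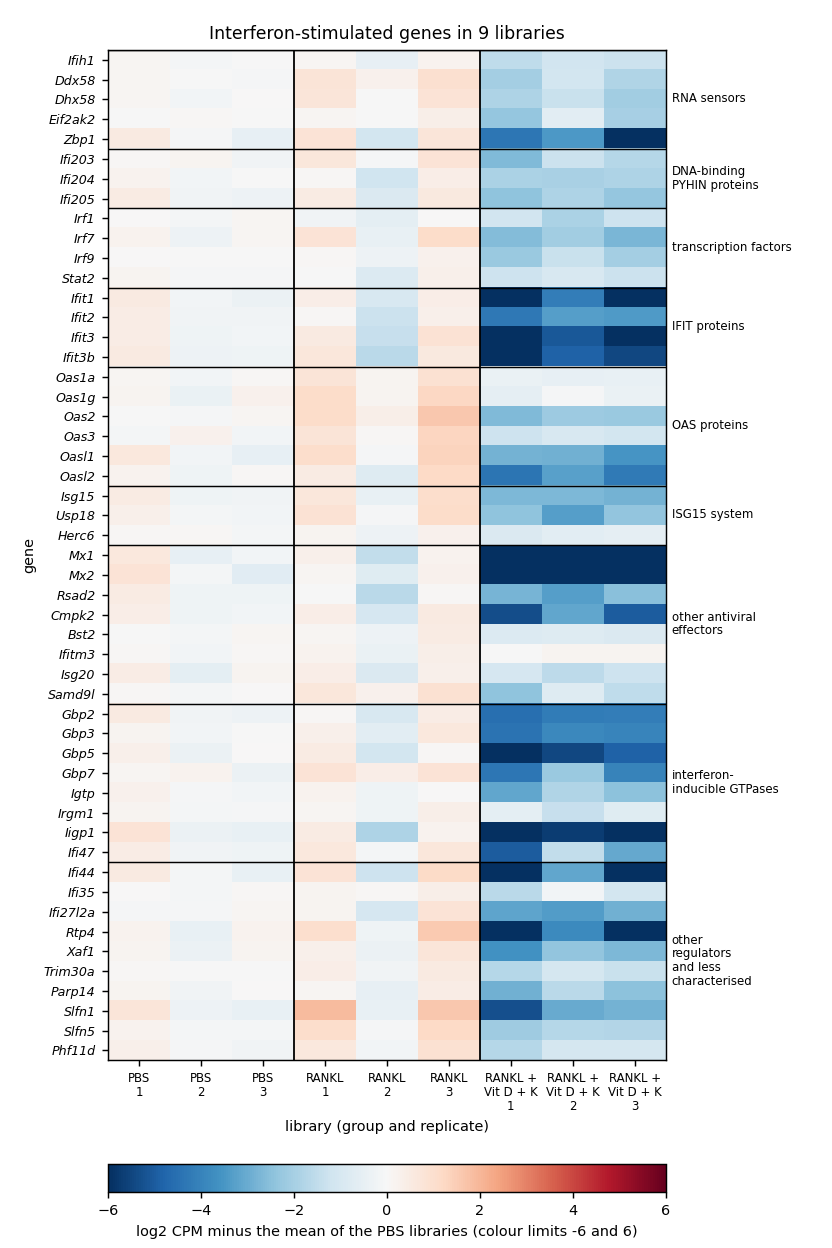
Levels of the 51 genes (rows, grouped by function) in the 9 libraries (columns, group and replicate), as log2 CPM after TMM scaling minus the mean of the 3 PBS libraries of the same gene, with colours limited at -6 and 6. The 3 columns of the RANKL + Vit D + K group are blue in nearly every row, with the palest colours in Ifitm3, Oas1a, Oas1g and replicate 2 of Ifi35, and RANKL replicate 2 is the lowest RANKL column in 51 of 51 rows.

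The cytosolic RNA sensors recognise viral RNA and start interferon production. Ddx58, which encodes RIG-I, had an FPKM of 7.81, 7.38 and 6.94 in the PBS libraries, 13.3, 10.1 and 15.3 with RANKL and 1.64, 3.72 and 1.99 with the vitamins. The 3 groups did not overlap, with the RANKL libraries highest and the vitamin libraries lowest. Its log2 fold change was -2.29 ± 0.27 (SE) with the vitamins against RANKL. Eif2ak2, which encodes the kinase PKR that halts translation on double-stranded RNA, had an FPKM of 9.58, 10.3 and 9.38 with PBS, 11.2, 10.9 and 13.1 with RANKL and 1.79, 6.75 and 2.35 with the vitamins. Replicate 2 of the vitamin group stood well above the other two, and without it the log2 fold change against RANKL moved from -1.60 to -2.29. Ifih1 (MDA5, a sensor of long double-stranded RNA) and Dhx58 (LGP2, a regulator of the other two sensors) were lower, at -1.28 and -2.28 on the log2 scale. Zbp1, a sensor of Z-form nucleic acid that can trigger cell death, had the largest difference of the 5, at -4.82 ± 0.97 (SE), from counts of 800, 225 and 780 with RANKL to 18, 42 and 0 with the vitamins.

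The PYHIN proteins of the Ifi200 family bind DNA. Ifi204 had an FPKM of 13.2, 10.7 and 11.3 with PBS, 13.2, 5.96 and 16.1 with RANKL and 2.91, 3.26 and 3.09 with the vitamins. RANKL replicate 2 was the lowest outside the vitamin group, and it was still above all 3 vitamin libraries. Ifi203 had an FPKM of 6.86, 7.43 and 5.56 with PBS, 11.2, 7.13 and 12.3 with RANKL and 0.952, 2.96 and 1.95 with the vitamins. The log2 fold changes against RANKL were -1.80 ± 0.33 (SE) for Ifi204, -2.29 ± 0.35 (SE) for Ifi203 and -2.45 ± 0.44 (SE) for Ifi205.

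Among the transcription factors that carry the interferon signal, the differences were smaller, with a median of -1.49 over 4 genes. Irf1, which interferon gamma induces and which binds the ISRE itself, had an FPKM of 16.4, 15.4 and 17.4 with PBS, 15.3, 12.6 and 17.6 with RANKL and 6.78, 4.83 and 6.63 with the vitamins. Stat2 had an FPKM of 13.5, 11.9 and 11.4 with PBS, 12.9, 7.84 and 15.8 with RANKL and 4.79, 6.82 and 4.79 with the vitamins. For both genes the PBS and RANKL libraries overlapped and the vitamin libraries lay below them, and the log2 fold changes against RANKL were -1.16 ± 0.21 (SE) for Irf1 and -1.03 ± 0.25 (SE) for Stat2. The partner of STAT2, Irf9, was lower, at -1.83 ± 0.24 (SE). Irf7, the factor that amplifies interferon alpha production and is itself interferon-induced, was lowest of the 4 relative to RANKL, at -3.09 ± 0.39 (SE).

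The IFIT proteins bind viral RNA and block its translation. Their median log2 fold change with the vitamins was -5.77, the lowest of the 9 functional groups. Ifit2 had an FPKM of 15.4, 9.85 and 9.53 with PBS, 12.6, 5.24 and 14.6 with RANKL and 0.524, 1.24 and 1.00 with the vitamins. Ifit3 had an FPKM of 10.5, 6.79 and 6.89 with PBS, 12.4, 3.48 and 15.1 with RANKL and 0.0853, 0.231 and 0.0663 with the vitamins, where its counts were 12, 32 and 9. That was a log2 fold change of -6.17 ± 0.68 (SE), or 72.1-fold lower than with RANKL. Its near copy Ifit3b had counts of 457, 268 and 258 with PBS, 539, 118 and 517 with RANKL and 0, 10 and 5 with the vitamins. Ifit1 had counts of 1553, 1001 and 845 with PBS, 1555, 643 and 1595 with RANKL and 4, 68 and 15 with the vitamins. For all 4 genes the PBS and RANKL libraries overlapped, and the fitted levels with the vitamins were between 10.9-fold (Ifit2) and 72.1-fold (Ifit3) lower than with RANKL. The 4 genes lie in 1 stretch of chromosome 19 between 34550694 and 34650009 (GRCm38 coordinates of the deposited table). The other 2 genes tested inside that stretch, Ifit1bl1 and Ifit1bl2, were also called lower with the vitamins, as 17.2% of all genes were. Ifit1bl2 had at most 26 counts in any library, and its call was lost without RANKL replicate 1 and without vitamin replicate 3.

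The OAS proteins make 2′-5′ oligoadenylate when they bind double-stranded RNA, which activates RNase L. These 6 genes were the group with the highest median log2 fold change for RANKL against PBS, at 0.81, and edgeR called 0 of them. All 6 fold changes were above 0, as were those of the 3 genes of the ISG15 system and the 10 other regulators, and of 39 of the 51 genes. Oas2 had an FPKM of 7.10, 7.12 and 7.85 with PBS, 16.8, 10.7 and 23.8 with RANKL and 1.08, 1.77 and 1.51 with the vitamins. Its log2 fold change was 1.11 ± 0.28 (SE) for RANKL against PBS and -3.44 ± 0.30 (SE) for the vitamins against RANKL, and no groups overlapped. Oas1a had an FPKM of 16.4, 13.8 and 15.6 with PBS, 27.4, 19.4 and 30.1 with RANKL and 10.5, 11.7 and 10.7 with the vitamins. The vitamin libraries of Oas1a thus lay just under the PBS libraries, with a log2 fold change of -0.46 ± 0.19 (SE) against PBS that was not called and of -1.09 ± 0.19 (SE) against RANKL that was. Oas1g had an FPKM of 4.31, 3.00 and 4.66 with PBS, 8.92, 5.10 and 9.93 with RANKL and 2.49, 4.03 and 2.84 with the vitamins, where the vitamin and PBS libraries overlapped. Oasl1, an OAS-like protein that restrains Irf7 translation, had counts of 333, 202 and 153 with PBS, 491, 241 and 615 with RANKL and 27, 31 and 16 with the vitamins. Oas3 and Oasl2 were lower than with RANKL, at -1.88 and -4.40 on the log2 scale. Within 1 family the difference from RANKL thus ran from 2.13-fold lower for Oas1a to 21.1-fold lower for Oasl2.

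ISG15 is a ubiquitin-like protein that is joined to other proteins, USP18 removes it and also blocks the IFNAR receptor, and HERC6 is the mouse ligase. Isg15 had an FPKM of 13.3, 8.04 and 8.03 with PBS, 16.4, 8.14 and 20.7 with RANKL and 1.24 to 1.54 over the 3 vitamin libraries. Usp18 had an FPKM of 3.60, 2.74 and 2.52 with PBS, 5.78, 3.22 and 6.68 with RANKL and 0.488, 0.297 and 0.521 with the vitamins. The PBS and RANKL libraries of both genes overlapped, and the vitamin libraries lay below them, 10.1-fold lower than RANKL for Isg15 and 10.6-fold for Usp18. Herc6 differed least of the 50 lower genes, at -0.74 ± 0.16 (SE).

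**Figure D2:**
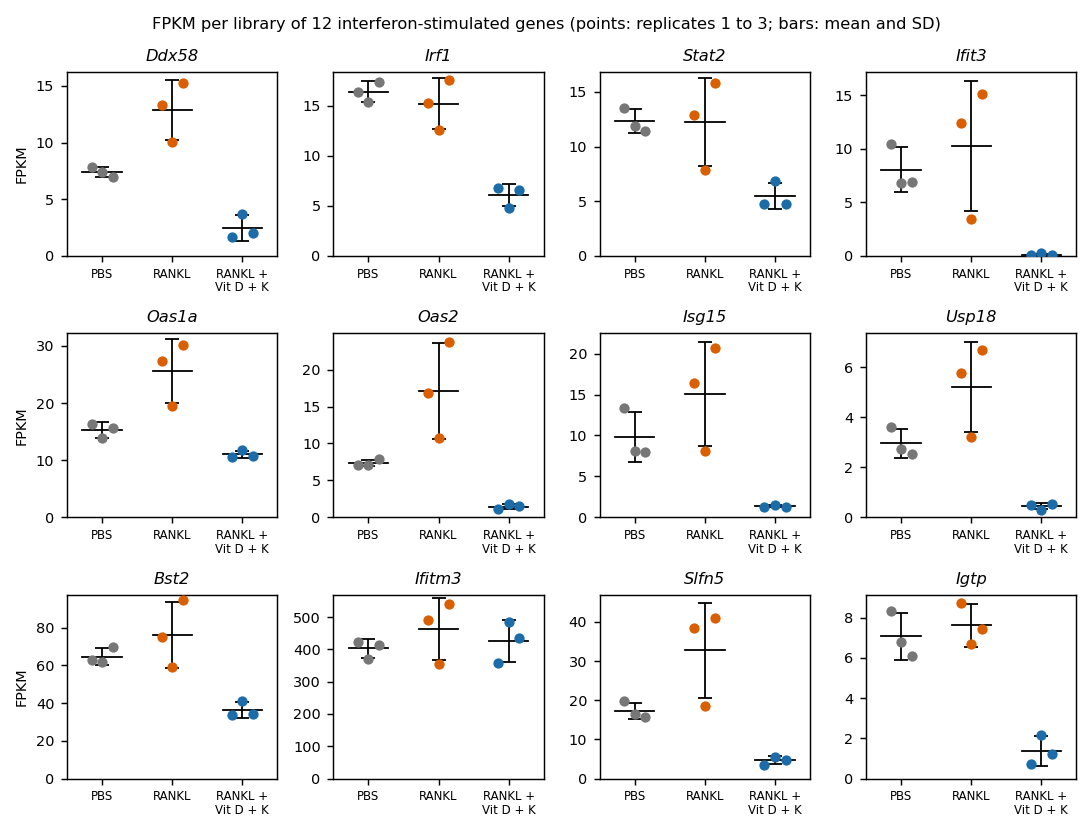
FPKM (linear axis from 0) of 12 interferon-stimulated genes in each library, with the group mean and SD as bars (n = 3). The vitamin libraries lie below all other libraries for every gene shown but Ifitm3, whose 9 libraries sit between 355 and 541.

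The other antiviral effectors held both the largest and the smallest difference. Mx2, a gene of the dynamin-like Mx GTPases that block viral replication, had counts of 414, 225 and 148 with PBS, 283, 169 and 316 with RANKL and 0 in all 3 libraries with the vitamins, at least 84.7-fold lower than RANKL against a floor of 3 counts per library. Its relative Mx1 had counts of 1172, 572 and 684 with PBS, 1026, 322 and 970 with RANKL and 0, 0 and 8 with the vitamins. Many inbred mouse strains are known to carry defective Mx genes, so these transcripts need not stand for a working protein. Both Mx genes were near or at the limit of detection with the vitamins in every library.

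Bst2 (tetherin, which holds budding virus at the cell surface) had an FPKM of 62.7, 61.7 and 69.9 with PBS, 75.3, 59.2 and 94.5 with RANKL and 33.7, 41.3 and 34.4 with the vitamins. It was 1.91-fold lower than with RANKL. Ifitm3, a membrane protein that blocks viral entry, had an FPKM of 423, 371 and 415 with PBS, 492, 355 and 541 with RANKL and 358, 486 and 434 with the vitamins. Its 3 groups overlapped fully, and its log2 fold change against RANKL was 0.01 ± 0.18 (SE), with values between -0.18 and 0.16 when each library was left out in turn. Ifitm3 had the highest FPKM of the 51 genes, and its promoter holds the ISRE core printed above. Cmpk2, a mitochondrial nucleotide kinase, and Rsad2 (viperin, which makes a chain terminator of viral RNA) share a locus on chromosome 12 and were lower, at -4.26 ± 0.65 (SE) and -2.51 ± 0.45 (SE). Samd9l, a growth and translation inhibitor, and the exonuclease Isg20 were lower, at -2.06 and -1.34 on the log2 scale.

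The interferon-inducible GTPases attack the vacuoles of intracellular microbes. All 8 were lower with the vitamins, with a median log2 fold change of -4.09. Igtp, the GTPase also called Irgm3, had an FPKM of 8.36, 6.78 and 6.08 with PBS, 8.75, 6.68 and 7.42 with RANKL and 0.724, 2.19 and 1.20 with the vitamins. Irgm1, which regulates the other members of its family, had an FPKM of 6.96, 5.84 and 5.92 with PBS, 7.21, 5.98 and 8.32 with RANKL and 3.81, 2.60 and 3.57 with the vitamins. Irgm1 was thus 1.93-fold lower than with RANKL where its partner Igtp was 5.16-fold lower. Iigp1 had counts of 736, 341 and 311 with PBS, 654, 133 and 542 with RANKL and 0, 7 and 0 with the vitamins. Gbp5, a guanylate-binding protein that promotes inflammasome assembly, had counts of 441, 295 and 357 with PBS, 549, 193 and 416 with RANKL and 0, 7 and 10 with the vitamins. The remaining guanylate-binding proteins Gbp2, Gbp3 and Gbp7 were lower, at -4.28, -4.33 and -3.91 on the log2 scale, and Ifi47 stood at -3.03 ± 0.71 (SE), with vitamin replicate 2 at 435 counts against 30 and 122 in the other two.

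The last 10 genes are other regulators and genes with less known roles. Ifi27l2a, which encodes a small membrane protein, had an FPKM of 45.9, 47.4 and 50.7 with PBS, 57.1, 27.8 and 88.1 with RANKL and 4.86, 5.05 and 6.10 with the vitamins. Slfn5, a Schlafen protein, had an FPKM of 19.7, 16.4 and 15.8 with PBS, 38.3, 18.6 and 41.1 with RANKL and 3.55, 5.61 and 4.84 with the vitamins. In both genes RANKL replicate 2 was the lowest RANKL library and every vitamin library lay below all others. Slfn1, a Schlafen protein linked to growth arrest of T cells, had counts of 120, 60 and 52 with PBS, 290, 60 and 251 with RANKL and 0, 8 and 8 with the vitamins. It had the largest log2 fold change of the 51 genes between RANKL and PBS, at 1.24 ± 0.78 (SE), but RANKL replicate 2 was at the PBS level. Rtp4, a chaperone of receptors that also inhibits flaviviruses, had counts of 765, 517 and 768 with PBS, 1458, 655 and 2232 with RANKL and 7, 52 and 3 with the vitamins. The other 6 were Ifi44, Xaf1, Parp14, Phf11d, Trim30a and Ifi35, with log2 fold changes against RANKL of -5.30, -3.11, -2.32, -1.78, -1.59 and -1.02. Ifi35 was the least stable of the 50 lower genes, with FPKM of 2.52, 8.39 and 3.85 with the vitamins, and its call was lost in 8 of the 9 fits that each left out 1 library.

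**Figure D3:**
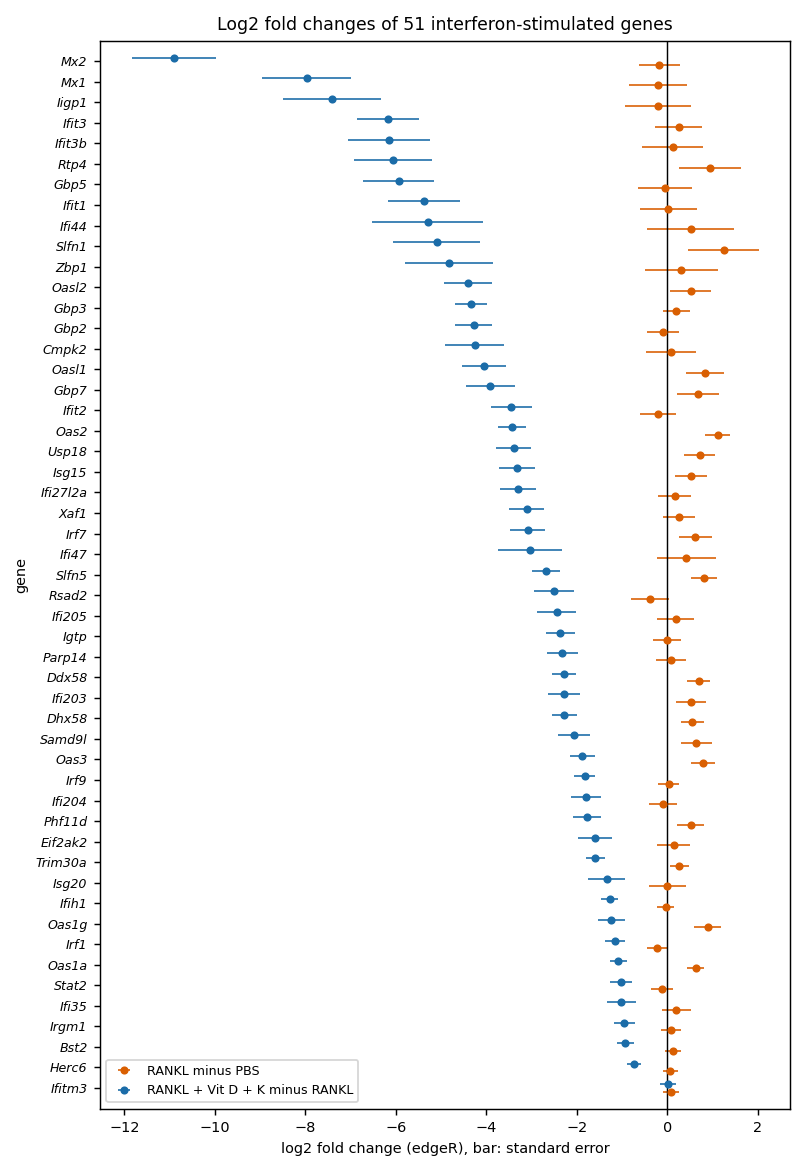
Log2 fold changes of the 51 genes with their standard errors, for RANKL against PBS (orange) and for RANKL + Vit D + K against RANKL (blue), ordered by the second. The blue points run from -10.91 for Mx2 to 0.01 for Ifitm3, and the orange points lie between -0.38 and 1.24. The points of Mx2 rest on 0 counts with the vitamins and depend on the model.

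RANKL alone and PBS were compared to ask whether these genes responded to the osteoclast signal itself. Of the 51 genes, 39 had a log2 fold change above 0 and 12 below, from -0.38 for Rsad2 to 1.24 for Slfn1, and 42 were above 0 on the FPKM scale with limma. edgeR called 0 of the 51, against 3.61% of all genes tested, of which 2.35% were called higher and 1.26% lower. At an unadjusted p under 0.05, 6 of the 51 were higher and 0 were lower, and no share of all genes was computed for that threshold. DESeq2 called 3 of them higher (Oas1a, Oas1g and Oas2), where it called 1056 of all 17002 genes higher. With limma on log2(FPKM + 0.1) 1 was called (Oas1a), where 605 of all genes were. On log2(FPKM + 1) it called 2 (Oas1a and Oas2), where 578 of all genes were called higher. With only the PBS and RANKL libraries, edgeR called 3 (Ddx58, Oas2 and Samd9l), where 1014 of 16997 genes were called higher. In 6 genes (Ddx58, Oas1a, Oas2, Samd9l, Gbp7 and Ifi35) every RANKL library was above every PBS library after TMM scaling, which held for 15.7% of all genes, and no gene of the 51 had every RANKL library below, against 19.9% of all genes. The median of 0.20 moved to -0.02 without RANKL replicate 3 and to 0.50 without RANKL replicate 2, so its direction rested on 1 library.

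RANKL replicate 2 had the lowest TMM-scaled level of its group for 51 of the 51 genes, whereas 43.4% of all genes tested were lowest there. RANKL replicate 3 was the highest for 43 genes, against 33.8% of all genes. The 51 genes together took 2733, 1777 and 3235 CPM in RANKL replicates 1, 2 and 3 and 2150, 1842 and 1916 in the PBS libraries, so RANKL replicate 2 lay under all PBS libraries and the other two above them. In the same RANKL libraries Acp5 was highest in replicate 2, with counts of 33892, 41013 and 25440, and so was the summed level of 9 neutrophil markers, at 98.2, 149 and 11.3 CPM. The neutrophil markers were also highest in PBS replicate 2, at 62.2, 126 and 10.2 CPM, and in vitamin replicate 2, at 0.717, 1.44 and 0.485 CPM. The 7 macrophage markers together were lowest in RANKL replicate 2, at 40800, 28100 and 41300 CPM. The part of neutrophils, of macrophages and of osteoclast formation in the order of the RANKL libraries was not tested.

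The vitamins were compared with RANKL alone to ask what they changed in cells on the way to osteoclasts. Of the 51 genes, 50 were called lower and 0 higher by edgeR (0 higher at an unadjusted p under 0.05 and by DESeq2), against 33.7% of all genes called, of which 17.2% were lower and 16.4% higher. DESeq2 and limma at either pseudocount also called 50 lower and 0 higher. With only the 2 groups compared, edgeR called 48 lower, as Ifi35 and Isg20 were lost, and with no low-count filter Ifi35 was lost. For the same 50 genes every vitamin library lay below every RANKL library, which held for 25.4% of all genes. By rank of the log2 fold change, 3 of the 51 genes were among the lowest 1% of all genes tested, 25 among the lowest 5% and 37 among the lowest 10%. With Mx2 set at its bound in place of its fitted value, the median remained -2.69. Over fits that each left out 1 library, 45 of the 50 genes were called every time, and Ifi35, Isg20, Oas1g, Ifi47 and Stat2 were lost at least once.

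The summed level of the 51 genes with the vitamins was 652, 1037 and 802.5 CPM in replicates 1, 2 and 3. Without Ifitm3, which made up much of it, the sum was 381, 664.9 and 469.4 CPM, against 2361, 1510 and 2816 with RANKL and 1830, 1562 and 1597 with PBS. Vitamin replicate 2 was the highest of its group for 35 of the 51 genes and replicate 1 the lowest for 34, against 44.5% and 40.8% of all genes. The macrophage markers had the same order as the summed level, at 8300, 19500 and 11400 CPM in vitamin replicates 1, 2 and 3, and a link was not tested. The number of the 51 genes at 0 counts was 7, 2 and 4 in the vitamin libraries and 0 in each of the other 6. In such bulk samples fewer cells of a type and less RNA per cell cannot be told apart.

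**Figure D4:**
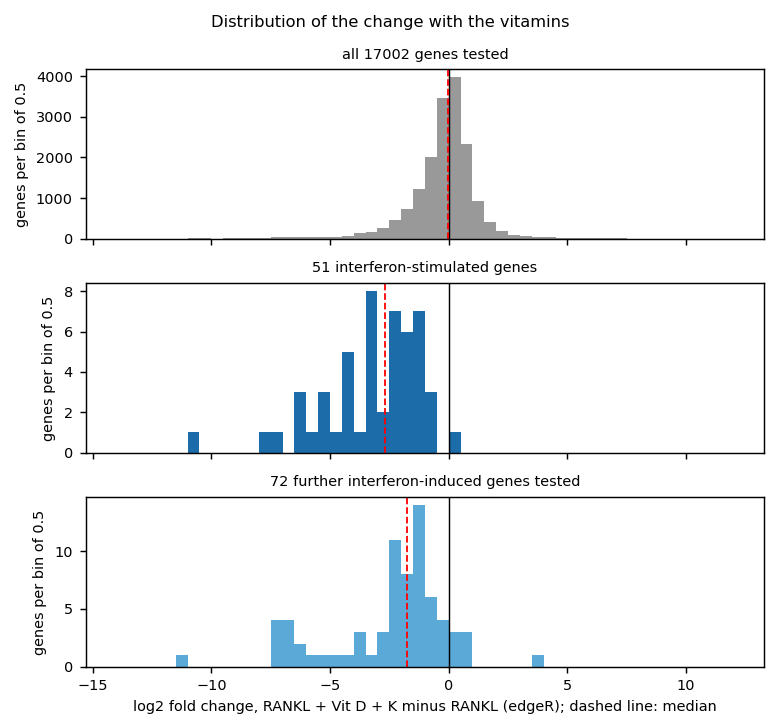
Number of genes per bin of 0.5 of the log2 fold change of RANKL + Vit D + K against RANKL, for all 17002 genes tested, the 51 interferon-stimulated genes and the 72 further interferon-induced genes that were tested, with the median as a dashed line. The medians are -0.04, -2.69 and -1.77.

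Against PBS, the vitamin group was compared to ask whether these genes returned to the level of unstimulated macrophages. edgeR called 47 of the 51 lower and 0 higher (0 higher at an unadjusted p under 0.05 and by DESeq2), against 40.8% of all genes called, of which 21.0% were lower and 19.8% higher. The 4 genes not called were Oas1a, Oas1g, Ifi35 and Ifitm3, with log2 fold changes of -0.46, -0.35, -0.82 and 0.09. Oas1a was called lower by limma at either pseudocount, with only the 2 groups compared and without RANKL replicate 2, and Ifi35 by DESeq2 and without vitamin replicate 2. Other calls were lost under alternatives, that of Slfn1 with limma on log2(FPKM + 1). Over the 9 fits that each left out 1 library, Isg20 was lost in 4, Ifi47 in 2, and Irgm1 and Eif2ak2 in 1 each. In 49 genes every vitamin library lay below every PBS library after TMM scaling, against 29.0% of all genes, and the exceptions were Oas1g and Ifitm3. Ifi35 was separated only after that scaling, since vitamin replicate 2 had an FPKM of 8.39 and PBS replicate 2 one of 8.02. The comparison shares its vitamin libraries with the comparison against RANKL, so the 2 sets of values are not independent.

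The differences of the genes with and without the ISRE core were set side by side for the 40 genes with a promoter entry. The 24 genes that held it had a median log2 fold change of -2.33 with the vitamins against RANKL (range -6.17 to 0.01), and the 16 genes whose promoter entry did not hold these letters had a median of -3.06 (range -5.30 to -0.74). The core was present in 6 of 7 GTPase genes, 3 of 4 IFIT genes and 3 of 3 RNA sensor genes, and in 1 of 4 transcription factor genes, Stat2. The 11 genes with the GAS letters had a median of -1.34 and the 29 without them one of -2.69. The 11 genes with no entry had a median of -3.44 (range -10.91 to -1.80), and 4 of the 8 largest differences of the 51 genes were among them (Mx2, Mx1, Iigp1 and Rtp4), so the medians by motif leave out many of the genes that differed most. These are medians over genes chosen in part for their difference, so they are given with no test.

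Several of the genes lie in clusters, and the other tested genes between them were counted, against the 17.2% of all genes that were lower and the 16.4% that were higher. Between Ifi204 and Ifi205 on chromosome 1 (173747293 to 174031810), all 4 other tested genes were called lower with the vitamins than with RANKL, among them Ifi202b, which had at most 28 counts and lost its call under several alternatives. Between Irgm1 and Ifi47 on chromosome 11 (48861968 to 49096974), 8 of 9 were lower and 0 higher, and Tgtp1 and Tgtp2, T cell-specific GTPases of the same family, were among them. Between Oas2 and Oas1a on chromosome 5 (120730333 to 120907521), 3 of 4 were lower. Between Slfn5 and Slfn1 on chromosome 11 (82951349 to 83122670), 1 of 6 was lower and 2 were higher, so the stretch did not move as a whole. Between Ifitm3 and Irf7 on chromosome 7 (141009586 to 141266481), 4 of 11 were lower and 1 was higher.

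The rest of the interferon pathway was taken from lists written from general knowledge with earlier results of these data known. Interferon genes themselves were hardly detected. Ifnb1, the gene of interferon beta, had counts of 7, 3 and 0 with PBS, 8, 0 and 0 with RANKL and 0 in each vitamin library, where a count of 0 allows up to 3 counts in a library. Of 21 listed interferon genes 4 were in the table, and none of the 4 (0 genes) passed the filter on low counts, so no difference in interferon transcripts was detectable at this depth.

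The receptors of type I interferon were present in all groups. Ifnar1 had an FPKM of 26.1, 27.8 and 22.7 with PBS, 33.8, 39.4 and 31.0 with RANKL and 18.5, 31.5 and 22.4 with the vitamins, and its log2 fold change with the vitamins against RANKL was -0.39 ± 0.15 (SE, edgeR adjusted p = 0.0656). Ifnar2 had an FPKM of 33.5, 36.9 and 33.8, then 33.8, 30.3 and 32.0, then 24.4, 28.1 and 25.3 in the same order, and was not called either (-0.16 ± 0.10 SE, edgeR adjusted p = 0.238). Against PBS, Ifnar2 was lower with the vitamins, with no overlap of the libraries, at -0.40 ± 0.10 (SE, edgeR adjusted p = 0.0122), a call that was lost without PBS replicate 2, PBS replicate 3 or vitamin replicate 3. Ifngr1, the receptor chain that binds interferon gamma, was lower, at -1.16 ± 0.16 (SE, edgeR adjusted p = 0.00153). Of 10 genes for receptors and JAK-STAT proteins, 2 were lower and 0 higher with the vitamins against RANKL (edgeR, with 0 higher at an unadjusted p under 0.05 and by DESeq2), against 17.2% of all genes lower. DESeq2 called 3 of the 10 lower, and limma called 5 on log2(FPKM + 0.1) and 4 on log2(FPKM + 1). The other gene that edgeR called was the kinase gene Tyk2 (-0.86 ± 0.15 SE, edgeR adjusted p = 0.00351).

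Of 13 genes whose proteins sense nucleic acid or switch on interferon genes, 6 were lower and 1, the TLR3 and TLR4 adaptor gene Ticam1, was higher with the vitamins against RANKL, where 17.2% of all genes were lower and 16.4% higher. Ticam1 had counts of 2266, 1999 and 2690 with RANKL and 5446, 2485 and 4561 with the vitamins, so vitamin replicate 2 lay within the RANKL range, and its call was lost with only the 2 groups compared and in 5 of the 9 fits that each left out 1 library. The largest differences were in Tlr9, the endosomal DNA sensor (-2.86 ± 0.42 SE, edgeR adjusted p = 0.00193), the kinase gene Ikbke (-1.99 ± 0.34 SE, edgeR adjusted p = 0.00329), Tlr3, the sensor of double-stranded RNA (-1.82 ± 0.32 SE, edgeR adjusted p = 0.00373), and Sting1, the adaptor of cytosolic DNA sensing (-1.38 ± 0.19 SE, edgeR adjusted p = 0.00141). Irf5, a factor of inflammatory and interferon genes, was lower against PBS, at -1.50 ± 0.29 (SE, edgeR adjusted p = 0.00389). With the vitamins against RANKL, Irf3, the factor that first turns on Ifnb1, differed by -0.14 ± 0.14 (SE, edgeR adjusted p = 0.455). In that comparison Irf8 differed by -0.10 ± 0.22 (SE, edgeR adjusted p = 0.773). Against PBS, Irf8 was lower with the vitamins, with no overlap of the libraries, at -1.03 ± 0.23 (SE, edgeR adjusted p = 0.00676). For RANKL against PBS Irf8 stood at -0.94 ± 0.23 (SE, edgeR adjusted p = 0.056), which was not called.

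Of 12 genes that restrain interferon signalling, 5 were lower and 3 higher, against the same 17.2% and 16.4% of all genes. With limma at either pseudocount 6 were lower and 1 higher, and with only the 2 groups compared 3 were lower and 1 higher. The higher gene in all of these fits was Ptpn2, while Irf2bp2 and Trim27 were no longer called. Trex1, an exonuclease that clears cytosolic DNA and is itself interferon-induced, had counts of 2207, 1270 and 2681 with RANKL and 63, 177 and 47 with the vitamins (-4.33 ± 0.48 SE, edgeR adjusted p = 0.000706). Samhd1, which depletes nucleotides, and the phosphatase gene Ptpn6 were lower, at -1.52 and -1.25 on the log2 scale (edgeR adjusted p = 0.00204 and 0.0163), and the call of Ptpn6 was lost with only the 2 groups compared and without vitamin replicate 3. Ptpn2, a phosphatase that acts on JAK kinases, was higher by 1.04 ± 0.19 (SE, edgeR adjusted p = 0.00411). Socs1, the feedback inhibitor of JAK kinases, had at most 89 counts in any library and was not called (-1.32 ± 0.85 SE, edgeR adjusted p = 0.26). Between RANKL and PBS edgeR called 0 genes of these 3 lists, against 3.61% of all genes. At an unadjusted p under 0.05, 1 of the 10 receptor and JAK-STAT genes, 5 of the 13 induction genes and 1 of the 12 restraining genes passed. Of the 5 induction genes 1 was higher and 4 lower, and no share of all genes was computed for that threshold. DESeq2 called 3 of the induction genes (1 higher and 2 lower) and 0 of the others, where it called 1056 of all 17002 genes higher and 643 lower. In the fit with a replicate block, edgeR called 2 of the induction genes lower, where it called 287 of all genes lower. With only the 2 groups compared it called 4 induction genes (1 higher and 3 lower) and 1 restraining gene (lower). That fit called 1014 of 16997 genes higher and 680 lower. With limma 2 induction genes were called at either pseudocount, 1 higher and 1 lower. Over all genes limma called 605 higher and 207 lower at the pseudocount of 0.1, and 578 and 250 at 1.

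**Figure D5:**
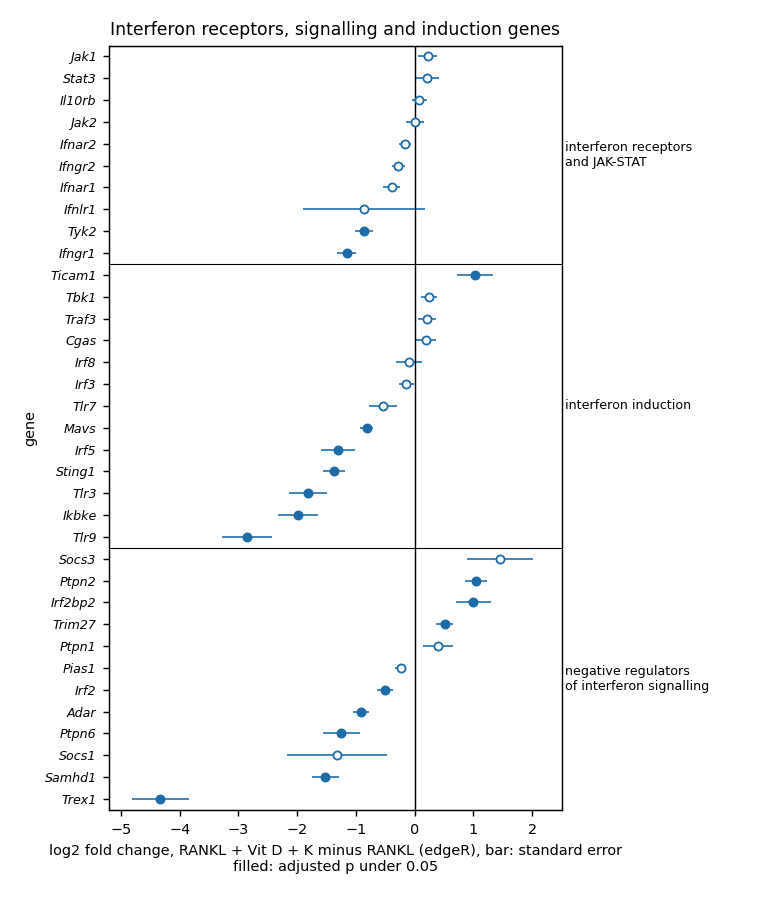
Log2 fold changes with standard errors of genes for interferon receptors and signalling, interferon induction and its restraint, RANKL + Vit D + K against RANKL, in 3 lists. Filled points have an edgeR adjusted p under 0.05. Trex1 among them is itself interferon-induced. Ifngr1, Tlr9 and Trex1 are the lowest of their lists, at -1.16, -2.86 and -4.33, and Ifnar1 and Ifnar2 lie at -0.39 and -0.16.

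A list of 76 further interferon-induced genes in the table, none of them among the 51, was set beside them, and 72 were tested. With the vitamins against RANKL, 57 were lower, 3 higher and 12 not called, where 17.2% of all genes were lower and 16.4% higher, and the median log2 fold change was -1.77. Gm4951, a GTPase gene of the Iigp1 family, had counts of 255, 130 and 205 with PBS, 300, 83 and 462 with RANKL and 0 in all 3 vitamin libraries, at least 93.0-fold lower than RANKL. Ifi213, a PYHIN gene, had counts of 479, 122 and 751 with RANKL and 0, 7 and 0 with the vitamins. Ifit1bl1, an IFIT-like gene, had counts of 909, 235 and 711 with RANKL and 0, 14 and 0 with the vitamins. The chemokine gene Cxcl9 and the PYHIN gene Ifi202b were low throughout, with at most 36 and 28 counts, and at 0 with the vitamins. The call of Ifi202b was lost with a replicate block, with no low-count filter and in 5 of the 9 fits that each left out 1 library, and that of Cxcl9 with limma on log2(FPKM + 1).

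The 3 genes of that list that were called higher with the vitamins were Gbp8, Aim2 and Zc3hav1. Gbp8, a guanylate-binding protein gene, had counts of 0, 39 and 45 with PBS, 237, 257 and 166 with RANKL and 3046, 1285 and 2972 with the vitamins, a log2 fold change of 3.67 ± 0.79 (SE, edgeR adjusted p = 0.00831). It stood in contrast to Gbp2, Gbp3, Gbp5 and Gbp7, all lower. Aim2, the PYHIN sensor that builds a DNA inflammasome, was higher by 0.92 ± 0.17 (SE, edgeR adjusted p = 0.00518), where Ifi203, Ifi204 and Ifi205 were lower. Zc3hav1, which encodes the zinc-finger antiviral protein ZAP, was higher by 0.78 ± 0.13 (SE, edgeR adjusted p = 0.00282). These 3 genes were named after their values were seen.

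Between RANKL and PBS, 1 of the 72 further genes was called higher and 0 lower by edgeR, with 10 higher and 1 lower at an unadjusted p under 0.05 and 6 higher and 0 lower by DESeq2, and in the fit with a replicate block 2 were higher. Over all genes, edgeR called 2.35% higher and 1.26% lower in that comparison. Of the 17002 genes, DESeq2 called 1056 higher and 643 lower, and the fit with a replicate block called 538 higher. The gene was Lgals3bp, a secreted glycoprotein gene, with an FPKM of 72.2, 72.7 and 73.3 with PBS, 128, 104 and 143 with RANKL and 46.6 to 53.9 over the 3 vitamin libraries. No groups overlapped, and it was higher with RANKL by 0.66 ± 0.14 (SE, edgeR adjusted p = 0.0382) and lower under the vitamins against RANKL, at -1.17 ± 0.14 (SE, edgeR adjusted p = 0.000937). The call for RANKL against PBS was lost in 5 of the 9 fits that each left out 1 library, namely each PBS replicate and RANKL replicates 1 and 3. Against PBS, 48 of the 72 were lower with the vitamins and 5 higher, where 21.0% of all genes were lower and 19.8% higher.

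Markers of cell types moved with the vitamins as well. The 7 macrophage markers took 44600 to 51800 CPM in the PBS libraries, 28100 to 41300 under RANKL and 8300 to 19500 with the vitamins. Of the 7, 5 were lower with the vitamins than with RANKL, Cd68 was higher by 0.53 on the log2 scale (not called without RANKL replicate 1), and Itgam was not called, where 17.2% of all genes were lower and 16.4% higher. The 9 neutrophil markers summed to 10.2 to 126 CPM with PBS, 11.3 to 149 with RANKL and 0.485 to 1.44 with the vitamins. Plasmacytoid dendritic cells, known as strong makers of type I interferon, had their defining markers at or near 0, with Siglech at 0 in 6 of the 9 libraries and at most 20 counts, and Ly6d at 4 counts in 1 library and 0 in the others. The 7 markers listed for these cells summed to 123 to 128 CPM with PBS, 67.0 to 101 with RANKL and 54.5 to 62.4 with the vitamins, most of it from Tcf4, which macrophages also express. Cox6a2 of that list was higher with the vitamins, with counts of 7, 11 and 11 with RANKL and 1469, 462 and 1190 with the vitamins. The 3 lymphocyte markers in the table summed to at most 0.282 CPM and the 5 stromal markers to at most 3.28. The part of the macrophage and neutrophil markers in the lower interferon-stimulated genes was not tested.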

How the data were processed

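RNA of BMDMs from 3 groups of 3 libraries was selected for poly(A) and sequenced as paired-end reads on an Illumina NovaSeq instrument. The authors deposited 1 table with whole-number read counts, not normalized, for each gene and with the FPKM values that the authors computed per gene length and library size. Per the submitters' processing notes, cutadapt 1.9, HISAT2 2.0.4, StringTie 1.3.4d and edgeR were used. The notes name a human build, but the table holds mouse Ensembl identifiers, and the coordinates of 87.2% of the identifiers that the reference also holds, in number 24678 of 28294, are those of GENCODE M21 on GRCm38. The use of strand and of reads that map to several genes is not given in the sources used here.

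Samples were grouped and numbered by their labels. In R 4.3.3, counts were analysed with edgeR 4.0.16: filterByExpr by group, TMM scaling, the quasi-likelihood test with all 9 libraries in 1 fit and Benjamini-Hochberg adjustment over 17002 genes, with a threshold of 0.05. The SE is the size of a log2 fold change divided by the square root of its F value. The test was checked on simulated counts with known changes. Totals of 65915112 to 68229647 counts set the precision, and a floor of 3 counts per library was used where a group was at 0. Such floors hold for counting error alone, because no molecular identifiers were used. No 2 libraries held identical values.

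The alternatives were DESeq2 1.42.0, limma 3.58.1 on log2(FPKM + 0.1) and log2(FPKM + 1), median-of-ratios size factors, other filters, only the 2 groups compared, the replicate number as a block, and each library left out in turn. The deviations from the group means of same-numbered PBS and RANKL libraries correlated across genes with r of 0.122, 0.219 and 0.155 (replicates 1, 2 and 3). These numbers may therefore pair the samples of that comparison, although the labels give no source of a pairing. The main fit leaves such a pairing out, and the fit with a replicate block takes it in.

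The 51 genes and all lists were chosen with earlier results of these data known. Values per library are given for the 2 genes of highest mean FPKM in each functional group, the 8 genes with the largest absolute log2 fold change for the vitamins against RANKL and the 5 with the largest for RANKL against PBS. Of the other interferon lists, Ifnb1, Ifnar1, Ifnar2, Ifngr1 and Socs1 are named with up to 4 called genes per list and comparison that had the largest changes. Genes outside this rule (Zbp1, Ifi47 and Ifi35, whose values are given for single libraries, and Irf3, Irf8, Ticam1, Irf2bp2, Trim27, Aim2, Zc3hav1 and the cluster and marker genes given singly) were named after their values were seen. An item that the rule also fixed is not reported here. Promoter sequences are those of RefSeq on GRCm38.p6.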

Additional observations from a re-analysis of the deposited data

How the results depend on the processing

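The lower level of the interferon-stimulated genes with the vitamins kept its direction, as a median and as counts of calls, under every alternative run. Ifitm3, which lay near 0 against RANKL, changed sign in some. The number called lower against RANKL lay between 45 and 49 over fits that each left out 1 library, and against PBS between 44 and 48. Their median log2 fold change lay between -2.99 and -2.47 against RANKL and between -2.68 and -2.10 against PBS in those fits. On log2(FPKM + 1), which understates changes of low genes, the medians were -1.66 and -1.37. The comparison of RANKL with PBS was less stable. The median of the interferon-stimulated genes lay between -0.02 (without RANKL replicate 3) and 0.50 (without RANKL replicate 2) with 1 library left out, and the number called higher between 0 and 3. It was 3 with DESeq2, 1 with limma on log2(FPKM + 0.1), 2 on log2(FPKM + 1) and 3 with only the 2 groups compared. The further interferon-induced genes called higher there numbered 6 with DESeq2, 3 with a mean FPKM of 1 or more, 6 and 5 with limma at the pseudocounts 0.1 and 1, 7 with only the 2 groups compared, and 0 to 8 with 1 library left out, the most without vitamin replicate 2. Called higher with the vitamins against RANKL, they numbered 3 to 6 with 1 library left out, the most without vitamin replicate 2. The causes were not tested.

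Over all genes, RANKL against PBS gave 1699 calls with DESeq2 and 1694 with only the 2 groups compared, against 614, and 126 to 1967 with 1 library left out. The fewest came without PBS replicate 3 and the most without vitamin replicate 2. The vitamins against RANKL gave 3791 calls with only the 2 groups compared, against 5725, and 3271 to 8273 with 1 library left out. The vitamins against PBS gave 4872 to 8868. With limma on log2(FPKM + 0.1), 35.6% of the calls for the vitamins against RANKL were higher, against 48.8%, and 36.8% on log2(FPKM + 1), and the median of all genes moved from -0.04 to -0.16 with the pseudocount of 0.1.

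With the replicate number as a block, 825 genes differed between RANKL and PBS, 2 further interferon-induced genes were higher with RANKL than with PBS, against 1, and the counts of interferon-stimulated genes called stayed at 0, 50 and 47 in the 3 comparisons. Same-numbered libraries deviated together less in the comparisons with the vitamins (r of 0.00625, 0.0428 and 0.107 against RANKL and -0.0216, 0.0217 and 0.0237 against PBS). A weak r over all genes does not settle whether the vitamin libraries are paired with the others. Gbp5, Ifi205, Ifi44 and Mx2 had no group with a mean FPKM of 1 or more and under that filter were not tested. At 3 libraries a group, genes at a few counts with the vitamins have no firm fold change.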
